A study of Homo sapiens with 6 samples.

Results

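NCI-H295R is an established human adrenocortical carcinoma line that makes adrenal steroids, and the genes described here are 10 feedback genes of its Wnt/beta-catenin pathway: APCDD1, ZNRF3, RNF43, AXIN2, LEF1, NKD1, NOTUM, LGR5, SP5 and TCF7. They were taken by name, as known beta-catenin targets that act back on the pathway, with earlier results of these data known. All 10 were found among the 34869 genes listed. RNA was compared between cells carrying a lentiviral shRNA against TPD52 (shTPD52) and cells carrying a lentiviral non-targeting shRNA (shCtrl), with 3 libraries in each group. Every library came from the same line, transduced with a lentivirus and grown in DMEM/F12 with serum and insulin-transferrin-selenium. The labels give neither the hairpin sequence nor the number of hairpins, so an effect of the hairpin itself and an effect of lowered TPD52 cannot be told apart. They also do not say that the 3 libraries of a group were separate cultures, and p-values therefore reflect only how far these libraries differed from each other, which may be technical. In bulk RNA, fewer cells of a kind and less RNA per cell cannot be told apart.

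Wnt ligands bind a Frizzled receptor and an LRP co-receptor, which stops a destruction complex built on APC and AXIN proteins from marking beta-catenin for degradation. Stabilised beta-catenin enters the nucleus and binds TCF/LEF factors, and among the genes it then switches on are brakes of the same pathway. NCI-H295R is known for an activating mutation of CTNNB1, the beta-catenin gene, so its beta-catenin escapes that degradation and target genes run high without ligand. In the adrenal cortex the pathway marks the zona glomerulosa, the aldosterone-making layer, and ZNRF3 is a recurrently lost gene of adrenocortical carcinoma. The genotype was not examined here, since the files hold expression values only.

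With the TPD52 hairpin, 5 of the 10 genes fell, none rose, 4 did not pass the test and 1, SP5, was too low to enter it. APCDD1 fell to 0.528 times its control level, LGR5 to 0.540, ZNRF3 to 0.576, NKD1 to 0.672 and LEF1 to 0.721 times theirs, as ratios of mean FPKM (reads scaled to gene length and to library size, as deposited). AXIN2, the gene most often read as a gauge of beta-catenin activity, was at 0.848 times its control level and did not pass. RNF43, the partner ligase of ZNRF3, and TCF7, a relative of LEF1, had means 1.01 and 1.06 times those of the control. Genes averaging 1 FPKM or more across all libraries entered the test, on log2(FPKM + 0.5), which makes changes of low genes look smaller than they are. It was made by limma with Benjamini-Hochberg adjustment over all 12782 such genes, and an adjusted p at or under 0.05 is a call. Over all tested genes 12.7% were called lower and 5.63% higher. At an unadjusted p under 0.05, 7 members were lower, AXIN2 and NOTUM among them, and 0 higher, where 26.8% and 11.8% of all tested genes were. By limma-voom on recovered reads 5 members were called lower, where 16.4% of all tested genes were, and 0 higher. The median log2 fold change stood at -0.45 over the 9 tested members and at -0.11 over all tested genes. Because the members were chosen with earlier results of these data known, these contrasts describe the list and do not test it.

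**Figure D1:**
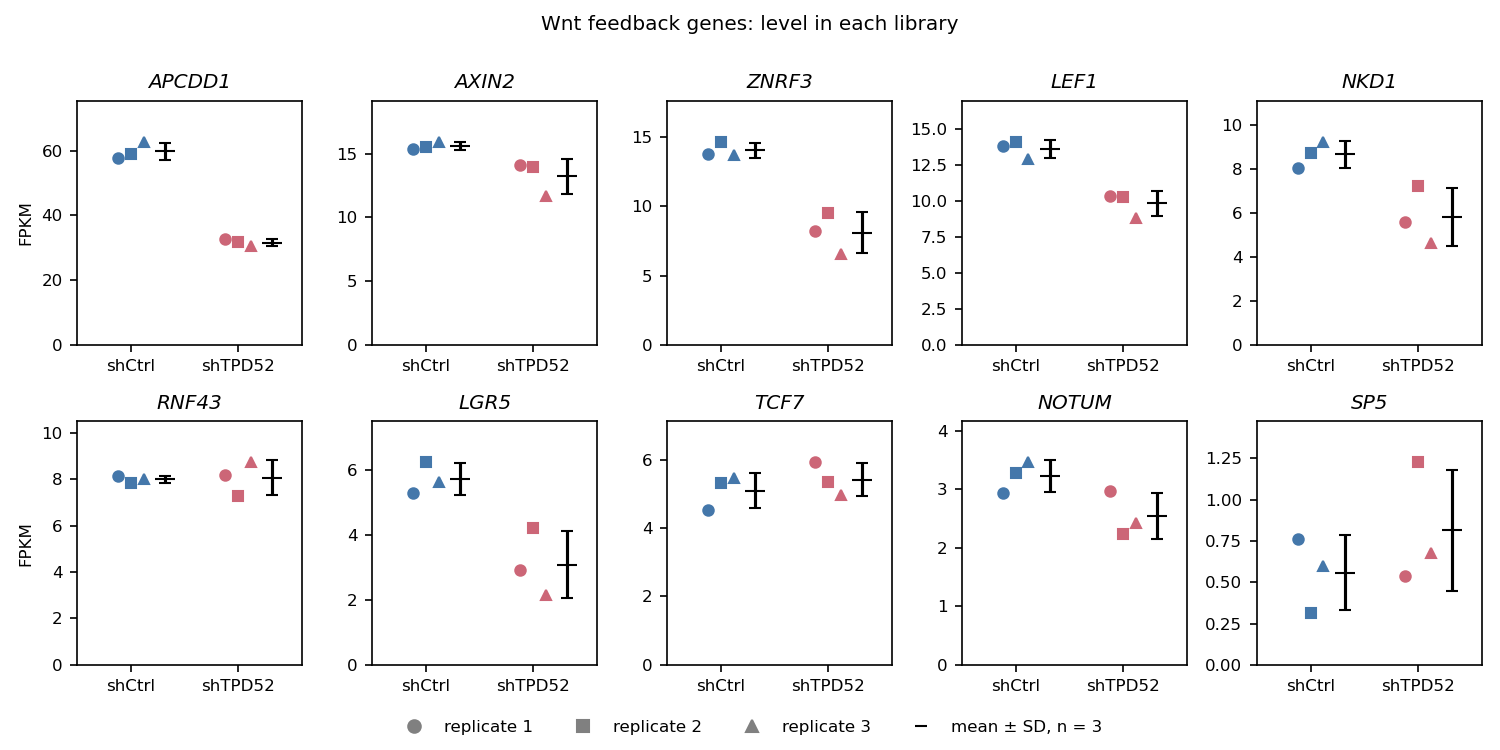
FPKM of the 10 Wnt feedback genes (1 panel each, y axes from 0) in 3 shCtrl (blue) and 3 shTPD52 (red) libraries, with marker shapes for the replicate number and black bars for the mean ± SD (n = 3). APCDD1, ZNRF3, LEF1, NKD1, LGR5 and AXIN2 have every shTPD52 library under every shCtrl library, while RNF43, TCF7, NOTUM and SP5 overlap between the groups.

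The libraries held 29544341 to 38396624 reads, as worked back from the FPKM values. TPD52 stood at 1.42, 1.18 and 1.29 FPKM in shCtrl and at 0.630, 0.635 and 0.655 FPKM in shTPD52, so the groups did not overlap. It was itself under the filter, and without a filter its adjusted p by limma was 0.0670. Adrenocortical markers were present (10 of 11 at 1 FPKM or more, with a summed level of 410 to 433 FPKM in shCtrl and 464 to 473 in shTPD52). That sum hides changes of single markers in both directions. HSD3B2 rose from 5.80 to 21.3 FPKM (limma adjusted p = 0.0014) and MC2R from 1.12 to 3.98 FPKM (0.0038). CYP21A2 and FDX1 were also called higher, and NR0B1 fell from 10.9 to 6.65 FPKM (0.0089). STAR, NR5A1, INHA, CYP11A1 and CYP17A1 did not pass. Over all tested genes 5.63% were called higher and 12.7% lower. Of markers of other cell types, 1 of 5 found for the medulla (CHGB), 1 of 8 for fibroblasts (COL3A1) and 0 of 6 for endothelium averaged 1 FPKM or more. Their summed levels in shCtrl and shTPD52 were 44.9 to 49.0 and 35.2 to 38.5 FPKM for the medulla, 23.6 to 25.3 and 19.9 to 25.3 FPKM for fibroblasts, and 0.295 to 0.457 and 0.287 to 0.461 FPKM for endothelium. The defining markers TH of the medulla (at most 0.123 FPKM), COL1A2 of fibroblasts (at most 0.0125) and PTPRC of leukocytes (at most 0.00636) were at or near 0. CHGB itself was called lower, from 45.8 ± 2.49 to 36.1 ± 1.94 FPKM (SD, n = 3 each, limma adjusted p = 0.0290), and COL3A1 did not pass. Whether the CHGB difference has a part in the other results was not tested. Reads of mitochondrially encoded genes made up 17.5% to 18.5% of shCtrl and 19.6% to 24.3% of shTPD52 libraries, and after rescaling to the other reads 5 members were lower (9.51% of all tested genes). One library stood apart: shTPD52 replicate 2 had a first principal component score of 0.29, where its fellow shTPD52 libraries had 27.3 and 35.3 and the controls -24.1 to -16.4. Without that library 6 of the 10 genes were lower, where 32.9% of all tested genes were.

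APCDD1 encodes a membrane glycoprotein that binds Wnt ligands and LRP5 and dampens the signal at the cell surface. The gene (ENSG00000154856) lies at chr18:10454628-10489948 on the plus strand of GRCh38. It was by far the most abundant of the 10, at 57.8, 59.0 and 62.8 FPKM in shCtrl and at 32.6, 31.7 and 30.5 FPKM in shTPD52. The 2 groups lay well apart, and the shTPD52 libraries stood close together, replicate 2 included. APCDD1 fell by 0.91 log2 units (SE 0.073, adjusted p = 0.00344 by limma), from 59.9 ± 2.63 to 31.6 ± 1.02 FPKM (SD, n = 3 each). Between 5710 and 13759 reads per library stand behind these values. Its call held in all 18 alternative analyses, with log2 fold changes from -0.94 to -0.70 and adjusted p up to 0.0272, and in each of the 6 that leave out a library. Of the tested genes, 1.46% had a lower fold change.

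ZNRF3 and RNF43 encode paired transmembrane ubiquitin ligases that remove Frizzled receptors from the cell surface. ZNRF3 (ENSG00000183579, chr22:28883592-29057487, plus strand) was at 13.8, 14.7 and 13.7 FPKM in shCtrl and at 8.23, 9.53 and 6.56 FPKM in shTPD52. No shTPD52 library reached the control range, and replicate 3 was the lowest. ZNRF3 fell by 0.77 (SE 0.13, limma adjusted p = 0.0132), from 14.1 ± 0.53 to 8.11 ± 1.49 FPKM (SD, n = 3 each). RNF43 (ENSG00000108375, chr17:58352500-58417595, minus strand) was at 8.11, 7.83 and 8.01 FPKM in shCtrl and at 8.18, 7.27 and 8.74 FPKM in shTPD52. Its locus overlaps the antisense gene TSPOAP1-AS1, at a mean of 1.39 FPKM, so reads of the pair may not be separated. The groups overlapped for RNF43, with both the lowest and the highest library in shTPD52. The log2 fold change of RNF43 was 0.0097 (95% interval -0.21 to 0.23, limma adjusted p = 0.950), and its sign turned without shCtrl replicate 2, shTPD52 replicate 1 or shTPD52 replicate 3. The ZNRF3 call ended without a filter (limma adjusted p = 0.0515) and without any 1 shCtrl replicate or shTPD52 replicate 1 (adjusted p from 0.0532 to 0.0718), with log2 fold changes from -0.79 to -0.74 there. After correction for length and GC content ZNRF3 was called at -0.52, and RNF43 was at 0.27 without passing (adjusted p = 0.124 by limma).

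Within each library the ratio of ZNRF3 to RNF43 FPKM was 1.70, 1.88 and 1.71 in shCtrl, against 1.01, 1.31 and 0.750 in shTPD52. This ratio, computed after the values had been seen, averaged 1.76 ± 0.097 in shCtrl and 1.02 ± 0.28 in shTPD52 (SD, n = 3 each). The groups did not overlap, and an exact two-sided permutation test gave p = 0.1, its lowest possible value with 3 libraries a group. The pair was picked once ZNRF3 was seen to be called and RNF43 not, so the ratio restates those values and is no separate support. The pair summed to 22.1 ± 0.41 FPKM in the controls and to 16.2 ± 0.78 FPKM with the hairpin (n = 3 each).

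LGR5 encodes a receptor for R-spondins, secreted proteins that draw ZNRF3 and RNF43 away from Frizzled, and it is the best known stem cell marker among Wnt targets. LGR5 (ENSG00000139292, chr12:71439770-71586310, plus strand) was at 5.28, 6.25 and 5.63 FPKM in shCtrl and at 2.92, 4.20 and 2.14 FPKM in shTPD52. The groups did not overlap, but the shTPD52 libraries spread widely, with replicate 2 nearest to the control. LGR5 fell by 0.83 (SE 0.20, limma adjusted p = 0.0294), from 5.72 ± 0.49 to 3.09 ± 1.04 FPKM (SD, n = 3 each). Its call ended without a filter (adjusted p = 0.109) and on leaving out any 1 library except shTPD52 replicate 2 (limma adjusted p from 0.0554 to 0.107). Without shTPD52 replicate 2 the log2 fold change was -1.05. LGR4, the paralog of LGR5 that also binds R-spondins, fell from 2.04 ± 0.076 to 1.17 ± 0.32 FPKM (SD, n = 3 each), a change of -0.63 in log2 units (adjusted p = 0.0370 by limma). The LGR4 call ended without a filter and without any 1 library except shTPD52 replicate 2. The LGR5 to LGR4 ratio averaged 2.79 ± 0.14 in shCtrl and 2.62 ± 0.16 in shTPD52 (SD, n = 3 each), with overlapping groups (exact permutation p = 0.3). LGR6, the third receptor, was at 0.0145 FPKM or less in every library.

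NOTUM encodes a secreted enzyme that strips the lipid from Wnt ligands and so inactivates them. NOTUM (ENSG00000185269, chr17:81952507-81961840, minus strand) was at 2.93, 3.29 and 3.47 FPKM in shCtrl and at 2.97, 2.23 and 2.43 FPKM in shTPD52. The shTPD52 replicate 1 library lay inside the control range and the other two below it. NOTUM was at a log2 fold change of -0.30 (95% interval -0.59 to -0.0027, limma adjusted p = 0.127) and passed in none of the 17 alternatives that tested it. These values rest on 237 to 373 reads per library.

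AXIN2 and NKD1 act inside the cell, AXIN2 as a scaffold of the destruction complex and NKD1 as a binder of Dishevelled proteins. AXIN2 (ENSG00000168646, chr17:65528563-65561647, minus strand) was at 15.3, 15.5 and 16.0 FPKM in shCtrl and at 14.1, 13.9 and 11.7 FPKM in shTPD52. The control libraries were tight, and each shTPD52 library lay below them, replicate 3 furthest. AXIN2 was at a log2 fold change of -0.23 (SE 0.095, 95% interval -0.45 to -0.016, limma adjusted p = 0.111). It passed only without shTPD52 replicate 2 (log2 fold change -0.27, limma adjusted p = 0.0454), and after the length and GC correction it was at -0.061. AXIN1, its paralog that is no feedback target, averaged 7.13 ± 0.37 FPKM in the controls against 6.85 ± 0.085 FPKM with the hairpin (n = 3 each), a difference that missed the threshold. AXIN1 changed sign under median-ratio, quantile and non-mitochondrial scaling, and also once length and GC content were corrected for, where it passed as higher (0.25, limma adjusted p = 0.0418). The AXIN2 to AXIN1 ratio averaged 2.19 ± 0.13 in shCtrl and 1.93 ± 0.21 in shTPD52 (SD, n = 3 each, exact permutation p = 0.2).

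NKD1 (ENSG00000140807, chr16:50548330-50649249, plus strand) was at 8.03, 8.71 and 9.25 FPKM in shCtrl and at 5.58, 7.24 and 4.64 FPKM in shTPD52. All shTPD52 libraries lay below the control range, with replicate 2 close to it. NKD1 fell by 0.55 (SE 0.15, limma adjusted p = 0.0415), from 8.66 ± 0.61 to 5.82 ± 1.31 FPKM (SD, n = 3 each), the call nearest to the threshold among the 5. Corrected for length and GC content, NKD1 was at -0.15 (adjusted p = 0.172 by limma). The counted length of NKD1 was 17359 bases, against a median of 4425 for tested genes. The NKD1 call also ended without a filter, with limma lacking the variance trend and on leaving out any 1 library except shTPD52 replicate 2 (adjusted p from 0.0906 to 0.147). NKD2, the paralog, averaged 0.118 ± 0.035 and 0.142 ± 0.064 FPKM (n = 3 each) and was too low to test.

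LEF1 and TCF7 are DNA-binding partners of beta-catenin and are at the same time its targets. LEF1 (ENSG00000138795, chr4:108047545-108168956, minus strand) was at 13.8, 14.1 and 12.9 FPKM in shCtrl and at 10.4, 10.3 and 8.81 FPKM in shTPD52. The groups did not overlap, and shTPD52 replicate 2 stood with replicate 1. LEF1 fell by 0.45 (SE 0.093, limma adjusted p = 0.0208), from 13.6 ± 0.62 to 9.81 ± 0.86 FPKM (SD, n = 3 each). The call ended without a filter (limma adjusted p = 0.0574) and without any 1 shCtrl replicate or shTPD52 replicate 1 (adjusted p from 0.0685 to 0.0829). TCF7 (ENSG00000081059, chr5:134114711-134151865, plus strand) was at 4.51, 5.30 and 5.47 FPKM in shCtrl and at 5.93, 5.34 and 4.98 FPKM in shTPD52, with overlapping groups. Its log2 fold change was 0.082 (95% interval -0.17 to 0.34, limma adjusted p = 0.612), and it passed as higher only once length and GC content were corrected for (0.41, adjusted p = 0.0276 by limma). TCF7 shares its locus with SKP1 on the opposite strand, at a mean of 14.8 FPKM, and the strand setting of the counting is not given in the sources used here, so its level is uncertain.

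TCF7L2, a family member not counted among the feedback genes, was at 3.52, 4.03 and 3.90 FPKM in shCtrl and at 2.53, 2.96 and 1.87 FPKM in shTPD52. TCF7L2 fell by 0.56 (limma adjusted p = 0.0410), and its call ended in the same alternatives as that of LGR4. It was called at -0.37 after correction for length and GC content. TCF7L1 was too low to test, with 0.819 ± 0.076 FPKM in the controls against 0.681 ± 0.052 (n = 3 each). Summed over the 4 TCF/LEF genes, the controls had 23.3 ± 0.83 FPKM and the shTPD52 libraries 18.4 ± 1.75 FPKM (n = 3 each). LEF1 supplied 58.3% ± 2.36 of that sum in shCtrl and 53.4% ± 0.47 in shTPD52, and TCF7 supplied 21.8% ± 1.95 and 29.5% ± 1.48 (SD, n = 3 each). In neither share did the groups overlap. The shares, and the ratio that follows, restate the levels given above and are no separate support. They rest on the TCF7 level, which is uncertain because of SKP1. The LEF1 to TCF7 ratio was 3.06, 2.66 and 2.36 in shCtrl and 1.74, 1.92 and 1.77 in shTPD52 (exact permutation p = 0.1, the smallest possible). For the 4 ratios between related genes the adjusted values were 0.2 for ZNRF3 to RNF43 and LEF1 to TCF7, 0.267 for AXIN2 to AXIN1 and 0.3 for LGR5 to LGR4. None could have passed at 0.05, since the smallest possible permutation p is 0.1 with 3 libraries a group, so these values decide nothing.

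**Figure D2:**
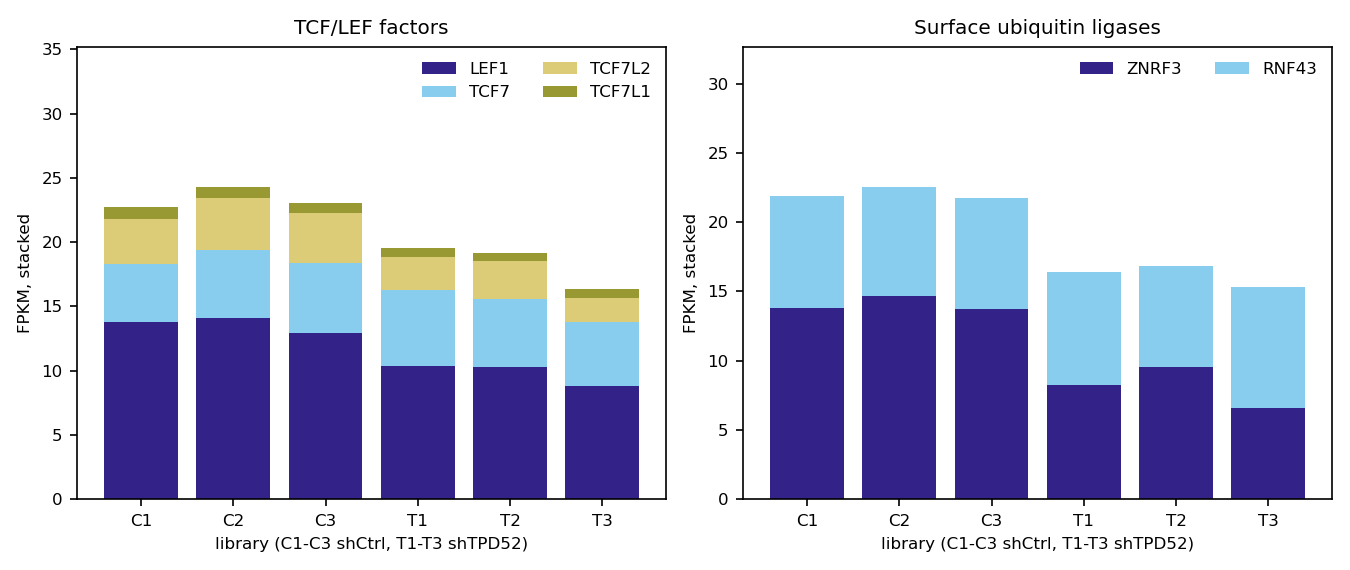
Stacked FPKM of LEF1, TCF7, TCF7L2 and TCF7L1 (left) and of ZNRF3 and RNF43 (right) in each library, C1 to C3 being shCtrl and T1 to T3 shTPD52 replicates. The LEF1 and ZNRF3 segments are shorter in every shTPD52 library, while the TCF7 and RNF43 segments overlap between the groups.

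SP5 encodes a zinc finger transcription factor of the SP family that is switched on by beta-catenin in many cell types. SP5 (ENSG00000204335, chr2:170715351-170718078, plus strand) was the lowest of the 10, at 0.760, 0.315 and 0.601 FPKM in shCtrl and at 0.539, 1.23 and 0.678 FPKM in shTPD52. The highest value was in shTPD52 replicate 2 and the lowest in shCtrl replicate 2, and the groups overlapped. In the fit without a filter SP5 was 0.30 log2 units higher (SE 0.26, limma adjusted p = 0.567), and no change was detected. The reads were 54, 20 and 46 in shCtrl and 33, 93 and 54 in shTPD52, so libraries of 1 group differed widely.

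Promoter windows of 300 bases (250 before to 50 after the start) were matched by symbol in the RefSeq table of GRCh38.p14 for 5 of the 10 genes, in 7 entries. They were searched on both strands for the TCF/LEF motif in its 4 spellings CTTTGAA (in 4.43% of all windows), CTTTGAT (2.62%), CTTTGTA (2.77%) and CTTTGTT (5.20%), none of which overlapped another match here. SP5 had 3 matches, which 0.179% of all 35116 windows reach or exceed. TCF7 had 1 match in 1 of its 2 windows, and the windows of APCDD1, LEF1 and RNF43 had none, where 13.8% of all windows hold at least 1. The 2 stretches below, 150 bases from -200 to -51 on the plus strand, show the window richest in matches, from the member with the lowest level, beside that of APCDD1, the member with the highest. Capitals mark the matches, of which the outer pair lie on the minus strand and so read as the reverse complement. The matches begin at -148, -109 and -84 in SP5 (chr2:170715137-170715286). The APCDD1 stretch (chr18:10454435-10454584) has no match.
SP5: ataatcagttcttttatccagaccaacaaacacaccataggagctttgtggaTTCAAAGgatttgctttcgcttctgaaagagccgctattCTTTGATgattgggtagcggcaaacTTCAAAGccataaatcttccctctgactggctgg
APCDD1: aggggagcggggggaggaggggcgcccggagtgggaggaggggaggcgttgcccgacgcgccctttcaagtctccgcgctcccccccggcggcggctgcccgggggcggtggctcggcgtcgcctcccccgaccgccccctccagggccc
A match is a description of letters in the reference genome. A window without one says nothing about sites elsewhere in the gene.

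FPKM are per gene length, so levels can be compared between the 10 genes, as far as the counted length reflects the transcripts made. In shCtrl the order was APCDD1, AXIN2, ZNRF3, LEF1, NKD1, RNF43, LGR5, TCF7, NOTUM and SP5. Neighbours overlapped in their ranges for ZNRF3 and LEF1, NKD1 and RNF43, and LGR5 and TCF7. In shTPD52 the order was APCDD1, AXIN2, LEF1, ZNRF3, RNF43, NKD1, TCF7, LGR5, NOTUM and SP5, with overlaps for LEF1 and ZNRF3, ZNRF3 and RNF43, NKD1 and TCF7, and LGR5 and NOTUM. Relative to shCtrl, LEF1, RNF43 and TCF7 each stood 1 place higher in shTPD52, and ZNRF3, NKD1 and LGR5 each stood 1 place lower.

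The shTPD52 libraries differed among themselves in a gene-dependent way. For APCDD1 they stood 0.87, 0.90 and 0.96 log2 units below the shCtrl mean in replicates 1, 2 and 3. For LGR5 the same distances were 0.86, 0.40 and 1.23, and for NKD1 they were 0.59, 0.24 and 0.83. In all 5 called genes, replicate 3 stood furthest below the shCtrl mean. The median of all tested genes moved too, by -0.10, -0.03 and -0.18 in replicates 1, 2 and 3. In every shTPD52 library 8 of the 10 genes were below their shCtrl mean, beside 60.4%, 54.9% and 66.2% of all tested genes in replicates 1, 2 and 3. In shCtrl replicates 1, 2 and 3 the same count was 7, 4 and 3 of the 10.

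**Figure D3:**
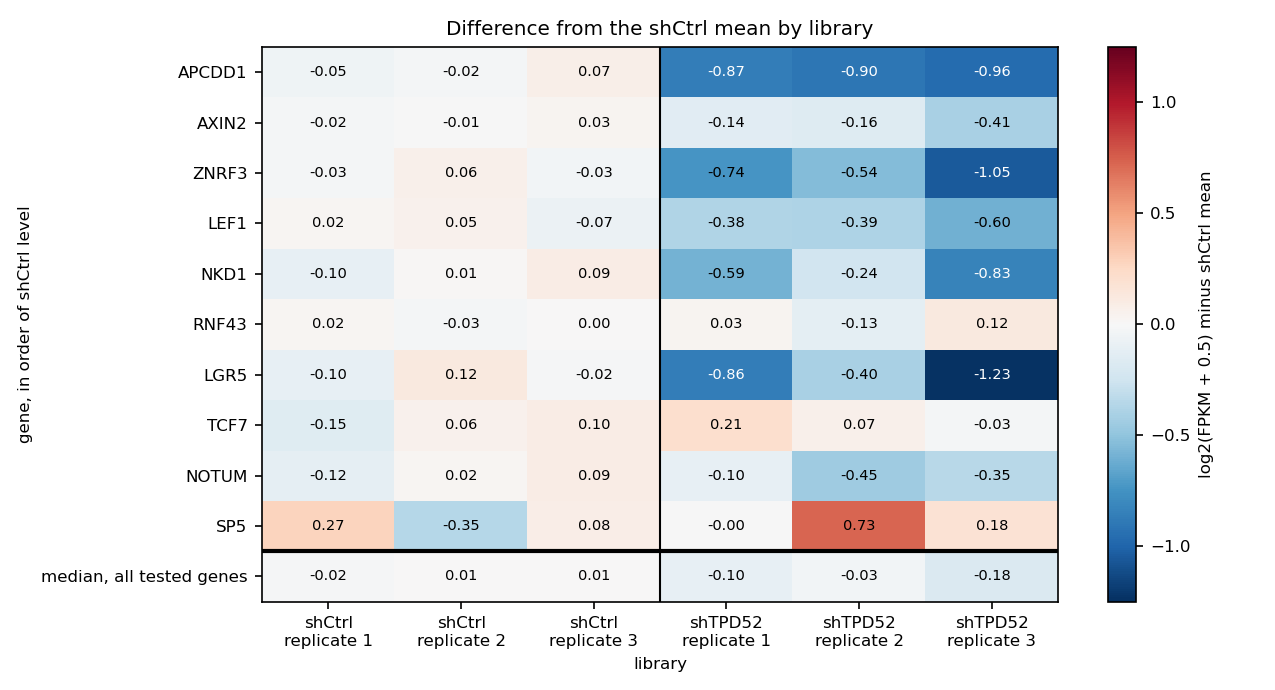
Each cell gives log2(FPKM + 0.5) in 1 library minus the mean of the 3 shCtrl libraries, for the 10 genes in order of their shCtrl level and, in the bottom row, for the median of all tested genes (blue lower, red higher). APCDD1 is between -0.96 and -0.87 in the shTPD52 libraries, while LGR5 runs from -1.23 to -0.40.

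Without overlap between the groups, 6 of the 9 tested members were lower and none higher, where 28.3% and 13.8% of all tested genes were. Over all tested genes 1621 were called lower and 720 higher. The split was 1196 and 993 with median-ratio scaling, 1187 and 1139 with quantile normalization, 1216 and 980 with scaling to non-mitochondrial reads and 1305 and 1318 after the length and GC correction. With median-ratio scaling, which moved the median of all tested genes from -0.11 to -0.02, 5 members were lower beside 9.36% of all genes. After the length and GC correction, which moved that median to 0.01, the called members were APCDD1, LGR5, ZNRF3 and LEF1 as lower (10.3% of all genes) and TCF7 as higher. Fewer genes of any kind passed without a filter, and also on leaving out any 1 library except shTPD52 replicate 2. APCDD1 alone of the 10 was called without a filter (1.02% of all genes lower), without shCtrl replicates 1, 2 or 3 (0.994%, 2.12% and 0.305%) and without shTPD52 replicate 1 (0.735%). Without shTPD52 replicate 3, APCDD1, LEF1 and ZNRF3 were called (4.50% of all genes). The log2 fold changes of the 5 called genes stayed below 0 in every alternative that tested them.

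**Figure D4:**
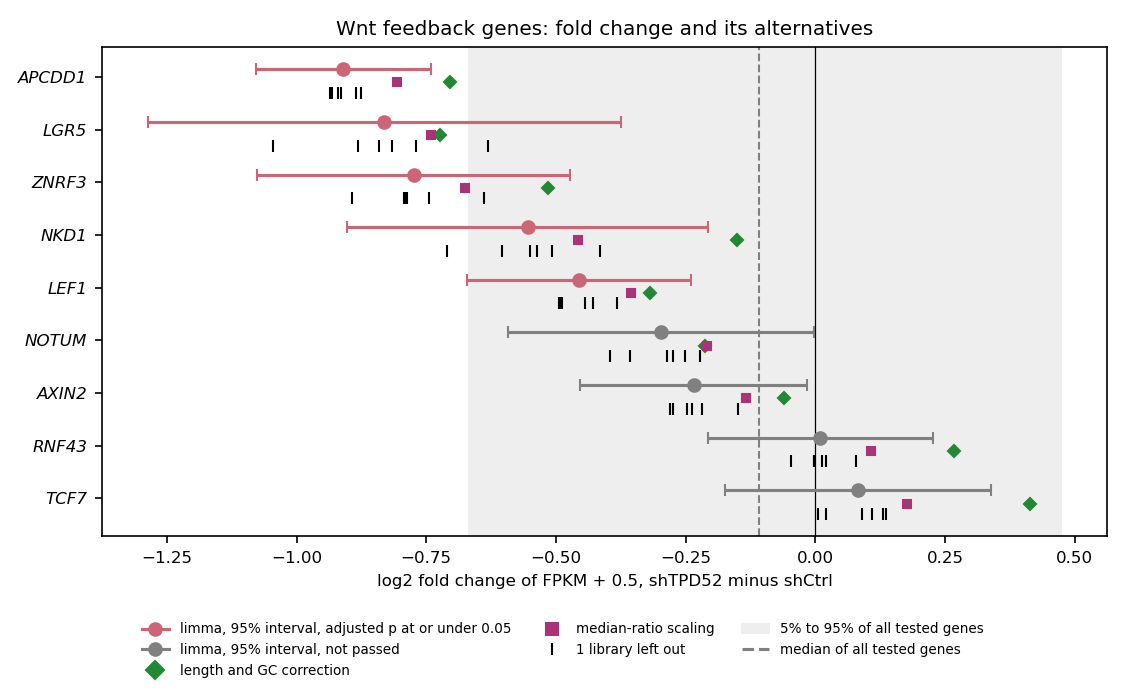
Log2 fold change (shTPD52 minus shCtrl) of the 9 tested genes by limma with its 95% interval (red, called; grey, not passed), beside the values after length and GC correction (green), with median-ratio scaling (purple) and with 1 library left out (black ticks). The grey band holds 5% to 95% of all tested genes, from -0.67 to 0.47; APCDD1, LGR5 and ZNRF3 lie to its left, and the green value of NKD1 lies at -0.15.

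Around the feedback genes, 20 of 73 further tested Wnt pathway genes were called in the main test, all lower. Over all tested genes 12.7% were called lower and 18.3% in either direction. That all were lower depended on the processing, since some alternatives called genes of these lists higher, as given by list below. The number called in either direction was 3 without a filter, 1, 2 and 1 without shCtrl replicates 1, 2 and 3, and 1, 46 and 5 without shTPD52 replicates 1, 2 and 3. Over all genes the same settings called 531, then 226, 450 and 87, then 159, 5825 and 897, so these counts moved with the whole table. CTNNB1 itself was at 44.6, 42.7 and 44.9 FPKM in shCtrl and at 39.7, 43.8 and 34.5 FPKM in shTPD52. Its log2 fold change of -0.17 did not pass (adjusted p = 0.232 by limma) and turned to 0.13 once length and GC content were corrected for. RNA levels do not show how much beta-catenin protein was present or active. Of 15 tested genes listed under beta-catenin and its destruction complex, 5 were lower and none was higher (median log2 fold change -0.38). The other 10 did not pass. This list also holds the Dishevelled genes. The 5 lower were AMER1, DVL2, the kinase genes CSNK1D and CSNK1E, which fell by 0.43 and 0.39, and DVL3, which fell by 0.38. APC, GSK3A, GSK3B, CSNK1A1, BTRC and FBXW11 did not pass, so the count does not describe a fall of the whole complex. Once length and GC content were corrected for, CSNK1D was at -0.074, CSNK1E at -0.14 and DVL3 at -0.13, and none of the 3 passed (adjusted p by limma 0.401, 0.170 and 0.176). Each of these calls also ended without a filter and on leaving out any 1 library except shTPD52 replicate 2. The count of 5 was 2 with median-ratio scaling (9.36% of all genes lower), 9 by limma-voom (16.4%) and 1 with length and GC content corrected for (10.3%). With that correction, and also without shTPD52 replicate 2, 1 gene of the list was called higher.

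Among 7 tested ligands and export genes, WNT4 was lower and 6 did not pass (median -0.27). Beside this and the list counts that follow, 12.7% of all tested genes were called lower. WNT4, a ligand known from the zona glomerulosa, fell from 23.4 ± 0.98 to 11.4 ± 1.43 FPKM (SD, n = 3 each), by 1.01 on the log2 scale, and held its call in all 18 alternatives (limma adjusted p up to 0.0353). Of 9 tested receptors and R-spondins, 2 were lower (median -0.28), FZD7, a Frizzled receptor, by 0.55 and ROR2, a co-receptor of the beta-catenin-independent branch, by 0.43. After correction for length and GC content ROR2 was at -0.22 and not called (adjusted p = 0.0779 by limma). The ROR2 call also ended without a filter and on leaving out any 1 library except shTPD52 replicate 2. The FZD7 call ended on leaving out any 1 shCtrl replicate or shTPD52 replicate 1. Of 7 tested secreted and surface inhibitors, 3 were lower (median -0.33, 5 of the 7 below 0). SFRP1 was at a log2 fold change of 0.50 without passing (limma adjusted p = 0.115), with overlapping groups. With the replicate block and after the length and GC correction 1 inhibitor was called higher. DKK1, a blocker of LRP co-receptors and itself a known beta-catenin target, fell from 1.80 ± 0.22 to 1.00 ± 0.12 FPKM (n = 3 each), KREMEN1, its receptor, fell by 0.63 and DKK3 by 0.33 on the log2 scale. DKK3 passed in only 4 of 17 alternatives, and after correction for length and GC content it was at -0.17 and KREMEN1 at -0.35, neither of them called (adjusted p by limma 0.135 and 0.0503). All 3 calls ended without a filter and on leaving out any 1 library except shTPD52 replicate 2.

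Of 17 tested genes among other reported beta-catenin targets, 7 were lower and 10 did not pass (median -0.43), where 12.7% of all tested genes were lower. Of the 17, 15 were below 0. ETS2 was at a log2 fold change of 0.38 without passing (limma adjusted p = 0.0556). Median-ratio, quantile and non-mitochondrial scaling each called 1 target higher (993, 1139 and 980 of all genes). So did limma-voom (748) and the fit without shTPD52 replicate 2 (1616), and the length and GC correction called 2 (1318). FN1, which encodes fibronectin, fell by 1.04, VEGFA, the angiogenic factor, by 0.64 and JUN, an AP-1 subunit, by 0.61 on the log2 scale. After correction for length and GC content VEGFA was at -0.24 and not called (adjusted p = 0.0729 by limma), and FN1 was called at -0.65. The calls of VEGFA and JUN ended without a filter and on leaving out any 1 shCtrl replicate or shTPD52 replicate 1, and that of FN1 without shCtrl replicate 1 or 3 or shTPD52 replicate 1. Many signals besides beta-catenin control these genes. None of the 15 tested nuclear partners of beta-catenin was called by limma (median -0.24). At an unadjusted p under 0.05, 8 of the nuclear partners were lower and 0 higher (26.8% and 11.8% of all tested genes). Called as lower were 5 of them by limma-voom (16.4% of all genes) and 8 without shTPD52 replicate 2 (32.9%). Of the 3 tested paralogs of the feedback genes, LGR4 and TCF7L2 were the 2 lower ones. APCDD1L, SP8 and SP9 were under the filter, with no library above 0.51 FPKM.

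**Figure D5:**
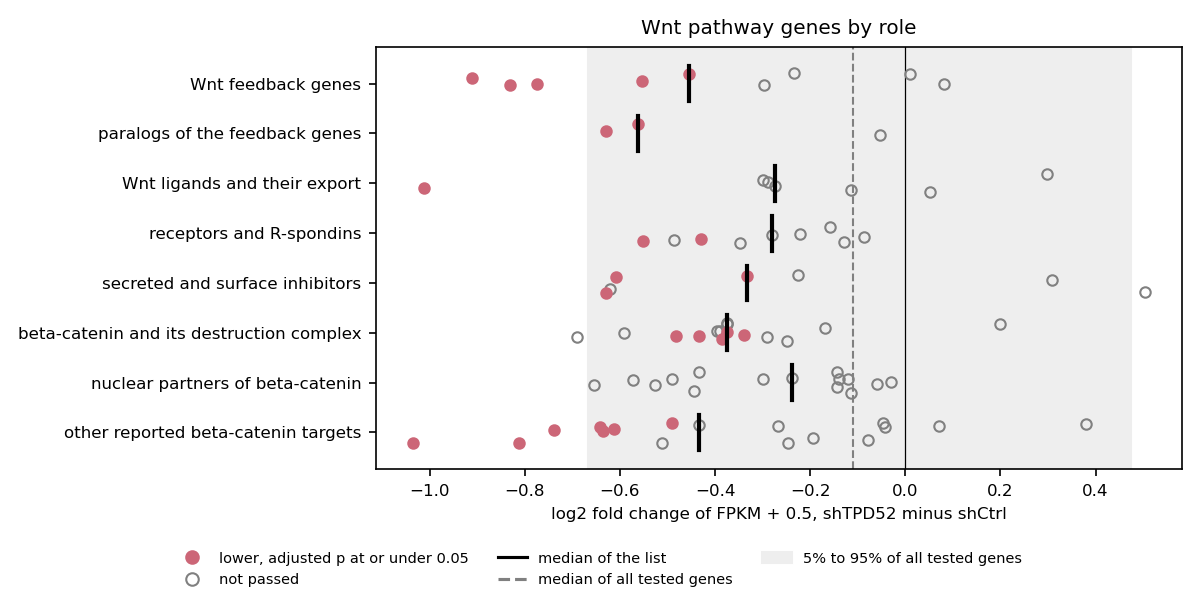
Log2 fold change (shTPD52 minus shCtrl) of every tested gene in 8 Wnt pathway lists, 1 circle per gene, filled where called lower by limma, with the list's median as a black bar. The dashed line is the median of all tested genes, -0.11, and the grey band holds 5% to 95% of them. No gene in these lists was called higher in this main test.

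Among the tested genes kept for this ranking, the 5 whose profile over the 6 libraries lay nearest to that of APCDD1 were DNM1, ADGRB2, NOTCH3, MAP3K14 and SPATC1. To drop clone names, symbols starting with AC, AL, AP, LINC, ENSG or RP and a digit were left out, which can also remove named genes. Nearness was the root mean square difference of log2(FPKM + 0.5), centred on the shCtrl mean, and it ran from 0.035 for DNM1 to 0.071 for SPATC1. DNM1, which encodes the endocytic GTPase dynamin 1, was at 14.2, 14.3 and 15.5 FPKM in shCtrl and at 7.67, 8.04 and 7.16 FPKM in shTPD52. NOTCH3, a Notch receptor gene, was at 4.56 ± 0.28 and 2.18 ± 0.25 FPKM (SD, n = 3 each). All 5 were called lower themselves, and such likeness says nothing of shared control.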

How the data were processed

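The authors deposited FPKM, 1 column per library. HISAT2 2.2.1 and featureCounts 2.0.3 appear in the submitters' processing notes, with GRCh38 as the build. Annotation release and strandedness were not given in the sources used here. Symbols were matched by identifier for 34864 of 34869 genes, and coordinates are those of GENCODE 29 on GRCh38. Reads were worked back from the FPKM steps with exon-union lengths, searched for where GENCODE 29 gave no whole numbers (within 0.02 reads). Odd numbers made up 25.9% to 29.4% of counts from 1 to 20, so reads may stand for fewer fragments.

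The test was limma 3.58.1 (R 4.3.3) on log2(FPKM + 0.5), moderated with an intensity trend, for genes averaging 1 FPKM or more. The scripts were tested on simulated data. The 18 alternatives were pseudocounts of 0.1 and 1, no filter or one of 5 FPKM, median-ratio, quantile and non-mitochondrial scaling, limma without trend, limma with robust prior variance, the replicate block, a loess correction for length and GC content (span 0.3, available for 12707 genes), limma-voom, and leaving out each library. The text names all 10 members, their paralogs, TPD52, CTNNB1, up to 3 called genes per list and direction (smallest p) and the 5 profiles nearest to APCDD1. Some further list genes and markers were named after the values were seen. Members and lists were chosen with earlier results of these data known, and the ratios between related genes, with their permutation tests, were added after values were seen, where no test had been planned. The summary of 1 marker list is not reported here.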

Additional observations from a re-analysis of the deposited data

How the results depend on the processing

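Of the 5 falls, only that of APCDD1 held under all 18 alternatives. The number of members called lower was 1 without a filter and between 1 and 6 when a library was left out; a member was called higher only after the length and GC correction (1). Over all genes 2341 were called, 531 without a filter and between 87 and 5825 with a library left out (5825 without shTPD52 replicate 2, 87 without shCtrl replicate 3). Other Wnt pathway genes called numbered 20, with 3 without a filter, 33 by limma-voom and between 1 and 46 with a library left out. The 46 were without shTPD52 replicate 2, where 5825 of all genes were called, and limma-voom called 2831 of all genes. With the replicate block 5 members and 33 other Wnt pathway genes were called, beside 3064 of all genes. Deviations of same-numbered libraries correlated at 0.045, 0.25 and 0.022, and 4 of 6 libraries correlated best with their own number. These values do not settle whether the numbers pair libraries, and the main test used no pairing. Signs turned for RNF43 (from -0.047 to 0.078 over the left-out libraries, with -0.0034 without shCtrl replicate 2 and -0.0019 without shTPD52 replicate 1), AXIN1 (0.043 with median-ratio scaling, 0.075 with quantile normalization, 0.018 with non-mitochondrial scaling, 0.25 after the length and GC correction) and CTNNB1 (0.13 after that correction). Causes were not tested. A filter of 5 FPKM left NOTUM and LGR5 untested. SP5 rests on 20 to 93 reads per library, so its values are the least precise of the 10 by counting error.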
